A study of Macaca fascicularis with 2 samples.

Results

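The genes described here are those of the circadian clock, followed in single cells of cynomolgus monkey cartilage and disc. They were chosen by name. Of 10 named genes, 9 were measured among 21371 genes: *PER1*, *PER2*, *PER3*, *CRY1*, *CRY2*, *NR1D1*, *NR1D2*, *ARNTL* and *CLOCK*. *DBP*, which encodes a bZIP transcription factor driven by the clock, was not analysed here. The cells came from 1 monkey that gave both nucleus pulposus (NP), the core of the disc, and articular cartilage (AC), and from another that gave AC, both male, wild type and 3 years old according to the labels. They were dissociated with enzymes, marked with 4 tags (A951 to A954), sorted as live cells, pooled and sequenced as 1 library by TAS-seq, a method that amplifies the cDNA made from single cells on barcoded beads. The labels list 3 tissue samples for 4 tags, and no source read here pairs tags with tissues. The tags were therefore used as 4 portions of the pool and not as tissues or replicates, and the hour of tissue collection is not given in the sources used here.

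In the circadian clock, the proteins CLOCK and ARNTL (also called BMAL1) form a pair of transcription factors that switch on the *PER* and *CRY* genes. The PER and CRY proteins then return to the nucleus and repress that pair, which closes a loop that runs with the day. *NR1D1* and *NR1D2*, which encode the REV-ERB nuclear receptors, are switched on by the same pair and repress *ARNTL* in turn. *PER1* in particular can also be induced quickly by outside signals, as immediate early genes such as *JUN* are. Cartilage and disc cells are known to have clocks of their own.

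The library held 1354369622 reads in 5723 cells. After removal of 42 doublets, 7 cells without a tag and 21 cells outside the limits on genes and mitochondrial reads, 5653 cells remained. They had between 24907 and 1290096 reads each, with a median of 198432 reads and 3827 genes. No cell barcode number was used more than once. Cells with at least 5 reads of *KRT19*, a keratin of the notochord, and at least 5 reads of *TBXT*, the transcription factor brachyury, were called notochordal cells (NCs). There were 310 of them, which is 5.48% of the kept cells (95% exact binomial interval 4.90 to 6.11%), and 5343 other cells. Tag A951 held 67 NCs, tag A952 236, tag A953 5 and tag A954 2. Values within a tag are therefore given for NCs mainly in A951 and A952. Depth was close in the groups, with a median of 186370 reads and 4061 genes in NCs and 199072 reads and 3819 genes in other cells.

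Markers that the rule did not use went with the name NC. *NCAM1*, a cell adhesion molecule, had 506 reads per 1000000 reads of the group (rpm) in NCs and 25.2 rpm in other cells. *CDH2*, which encodes N-cadherin, had 120 and 1.16 rpm. *COL2A1*, the main collagen of cartilage, had 1269 rpm in NCs and 20072 rpm in other cells, whereas *ACAN*, the large proteoglycan of both tissues, had 14440 and 3968 rpm. The 7 chondrocyte markers summed to 18114 rpm in NCs and 40814 rpm in other cells. Of these only *ACAN* and *SOX9* were higher in NCs, *SOX9* with 1120 against 346 rpm, and the others were lower. Markers of fibroblasts and the annulus summed to 1042 rpm in NCs and 3769 rpm in other cells. Those of endothelial and immune cells were low. The 4 endothelial markers measured summed to 3.07 rpm in NCs and 2.60 rpm in other cells (most abundant *VWF*), and the 6 immune markers to 28.1 and 23.2 rpm (most abundant *CD68*). The 3 mural markers were higher in NCs, at 79.2 against 9.81 rpm, mostly *ACTA2* with 70.7 and 6.54 rpm, and their part in the clock gene values was not tested. None of the markers measured was at 0.

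*PER1* and *NR1D1* had higher levels in NCs than in other cells, by 3.93-fold and 2.63-fold, and did so within both tags that held at least 50 NCs. The other clock genes differed by less than 2-fold. With 1 library there is no replicate error, so no test was made. A gene was called higher or lower by its size, at 2-fold or more, and intervals are 95% exact intervals for counting error alone, which PCR copies make too narrow. Of the 9 clock genes, 2 were at least 2-fold higher in NCs and 0 were at least 2-fold lower, while among the 11068 genes tested 23.3% were higher and 12.3% lower. The share of clock genes called higher was thus near that of genes at large. A log2 ratio above 0 was found for 8 of the 9, beside 62.4% of all genes, and the median log2 ratio was 0.66 for the clock genes and 0.27 for all genes. Both *PER1* and *NR1D1* passed 2-fold in A951 and in A952, which 15.2% of all genes did. In A951 alone, 2 of the 9 were higher and 0 lower, beside 25% and 20.1% of all genes, and 7 had a log2 ratio above 0, beside 55.4%. In A952 alone, 2 were higher and 0 lower, beside 23.8% and 13.8%, and 9 had a log2 ratio above 0, beside 61.2%. By size of the ratio, *PER1* took place 889 of 11068.

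*PER1*, which encodes a repressor of the clock, had 252 rpm in NCs (interval 248 to 256) and 64.2 rpm in other cells (63.8 to 64.7). Within the tags, other cells had 56.1 rpm in A951, 65.5 in A952, 49.6 in A953 and 75.3 in A954, and NCs had 259 rpm in A951 and 253 in A952. The lowest NC value of these 2 tags was thus above the highest value of other cells. The 5 NCs of A953 had 178 rpm and the 2 of A954 had 456 rpm. The log2 ratio of NCs to other cells was 1.97 over all cells, 2.21 in A951 and 1.95 in A952.

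The share of cells with *PER1* differed too. At least 1 read was found in 66.8% of NCs (61.2 to 72.0%) and 39.8% of other cells (38.5 to 41.1%), and at least 5 reads in 54.2 and 16.0%. Single reads can be background in pooled libraries. *KRT19* had a read in 10.6% of other cells and at least 5 reads in 0.99%, and *TBXT* had 10.4 and 0.60%. Because these genes set the groups, their shares at 5 reads follow partly from the rule. The background of *PER1* was not measured. When every cell was thinned to 50000 reads, leaving out 11 NCs and 196 other cells with fewer, *PER1* was found in 60.5% of NCs and 23.1% of other cells. Cells with a *PER1* read also differed in level, with a median of 219 rpm in NCs and 9.43 rpm in other cells. In other cells the reads were held by few cells, as 148 of 5343 cells held 50% of them. In NCs 31 of 310 cells did.

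*NR1D1*, whose product represses *ARNTL*, had 325 rpm in NCs (321 to 329) and 124 rpm in other cells (123 to 124). Other cells had 114 rpm in A951, 133 in A952, 128 in A953 and 122 in A954, and NCs had 395 rpm in A951 and 319 in A952. The tags lay close to each other among other cells and below both NC values. The 5 NCs of A953 had 85.5 rpm and so did not share this pattern, and the 2 NCs of A954 had 266 rpm. The log2 ratio was 1.39 over all cells, 1.79 in A951 and 1.26 in A952. At least 5 *NR1D1* reads were found in 58.1% of NCs and 27.0% of other cells, and at 50000 reads per cell the gene was found in 68.6 and 39.0%.

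**Figure D1:**
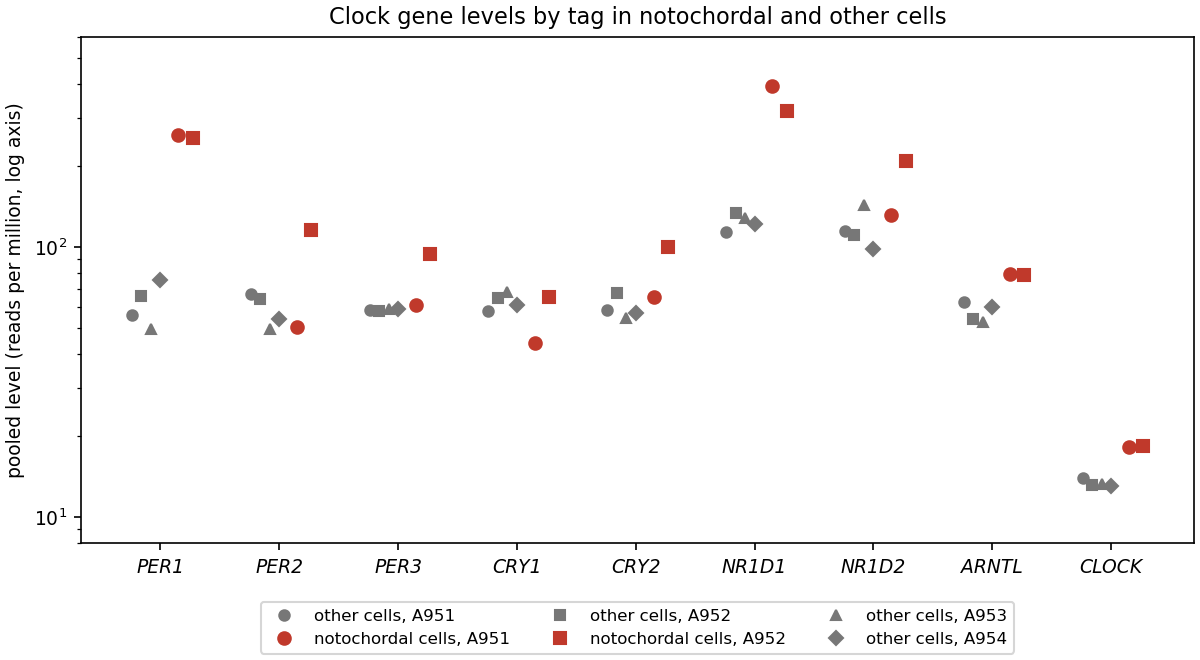
Pooled level of each clock gene in reads per 1000000 reads on a log axis, by tag, with other cells in grey and notochordal cells in red. Notochordal cells are drawn for tags A951 and A952 only, which held 67 and 236 of them, and for *PER1* they sit at 259 and 253 rpm, above the 49.6 to 75.3 rpm of other cells.

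Further repressors of the *PER* and *CRY* families had smaller ratios, and these differed between the tags. *PER2* had 50.5 rpm in NCs of A951 and 116 rpm in NCs of A952, while other cells had 66.8, 64.3, 49.6 and 54.2 rpm in A951 to A954. NCs were thus lower than other cells in A951 and higher in A952, with log2 ratios of -0.40 and 0.85. *PER3* had a log2 ratio of 0.05 in A951 and 0.71 in A952, with 58.5, 57.8, 59.0 and 58.7 rpm in other cells of the 4 tags, the most even of the clock genes.

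*CRY1* was the only clock gene without a higher pooled level in NCs, with 61.6 rpm against 63.0 rpm in other cells. Its log2 ratio was -0.39 in A951 and 0.01 in A952. Fewer NCs than other cells had a *CRY1* read, 39.0% (33.6 to 44.7%) against 49.0%, and also at least 5 reads, 18.7 against 29.1%, and at 50000 reads per cell the shares were 24.1 and 35.7%. *CRY2*, the other cryptochrome, went the other way, with 91.6 rpm in NCs and 58.0 rpm in other cells, a log2 ratio of 0.66, and a read in 45.2 and 38.3% of cells. NCs had 65.4 rpm of *CRY2* in A951 and 99.8 rpm in A952, and other cells 58.4 and 67.7 rpm.

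**Figure D2:**
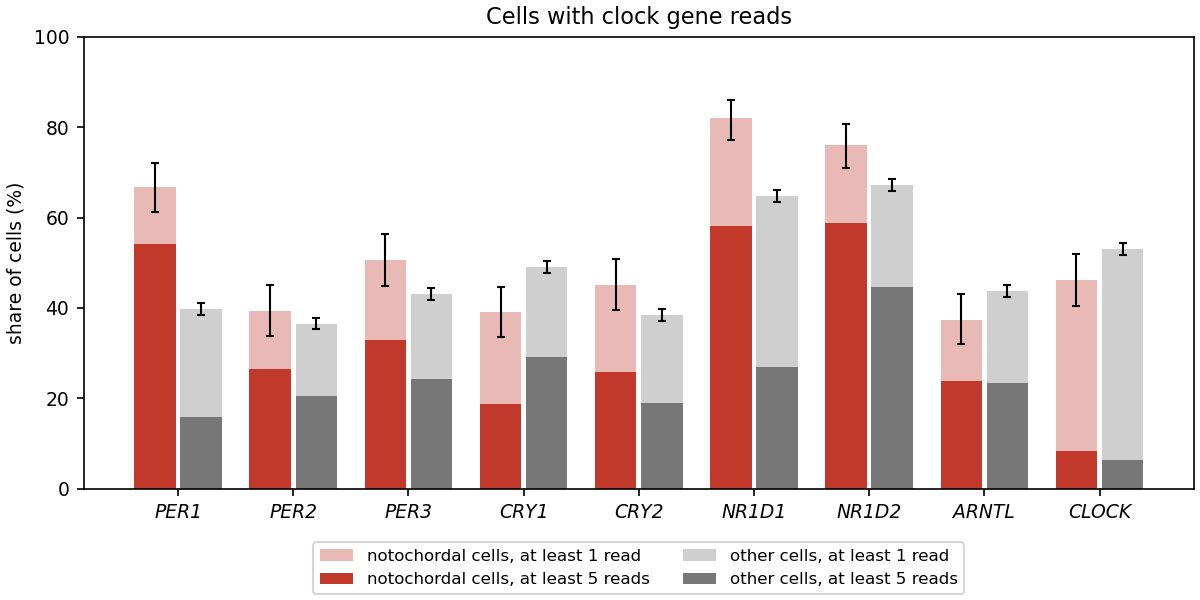
Share of cells, in percent, with at least 1 read (light bars, with 95% exact binomial intervals) and at least 5 reads (dark bars) of each clock gene in 310 notochordal and 5343 other cells. *PER1* and *NR1D1* show the widest gaps at 5 reads, while *CRY1* has the lower share in notochordal cells.

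*NR1D2*, the second REV-ERB gene, was read in 76.1% of NCs and 67.2% of other cells. It had 131 rpm in NCs of A951 and 208 rpm in NCs of A952, and other cells had 115, 111, 143 and 98.0 rpm in A951 to A954. The A951 value lay within the range of other cells and the A952 value above it, so that the log2 ratio was 0.19 in A951 and 0.91 in A952.

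The activators differed little between the groups. *ARNTL* had 77.6 rpm in NCs and 57.7 rpm in other cells, with log2 ratios of 0.34 in A951 and 0.53 in A952. *CLOCK* had 17.8 and 13.2 rpm, with log2 ratios of 0.38 and 0.48. For both, fewer NCs than other cells had a read, 37.4 against 43.7% for *ARNTL* and 46.1 against 52.9% for *CLOCK*. At 5 reads the shares were 23.9 and 23.3% for *ARNTL* and 8.39 and 6.36% for *CLOCK*, so the direction of the share depended on the number of reads asked for. Few NCs carried the *CLOCK* reads, as the 4 highest cells held 44.0% of them. At 50000 reads per cell *CLOCK* was found in 20.7% of NCs and 20.4% of other cells.

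**Figure D3:**
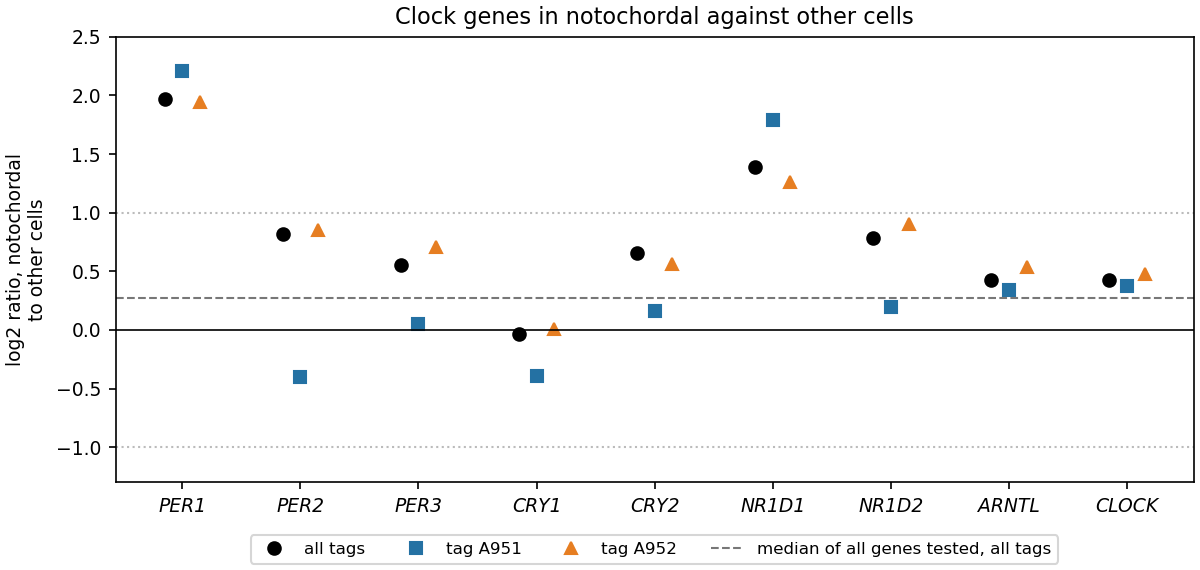
Log2 ratio of the pooled level in notochordal to other cells for each clock gene, over all tags and within tags A951 and A952, with dotted lines at 2-fold and a dashed line at 0.27, the median of the 11068 genes tested. *PER1* and *NR1D1* lie above 2-fold in both tags, and *PER2* lies on opposite sides of 0.

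Among other cells alone, the clock genes differed modestly from tag to tag. The highest tag had 1.52 times the *PER1* level of the lowest, and this fold was 1.45 for *NR1D2*, 1.35 for *PER2*, 1.24 for *CRY2*, 1.18 for *CRY1* and *ARNTL*, 1.17 for *NR1D1*, 1.07 for *CLOCK* and 1.02 for *PER3*. For comparison it was 1.56 for *JUN*. A954 was highest and A953 lowest for *PER1*, whereas A953 was highest and A954 lowest for *NR1D2*. The share of other cells with a *PER1* read lay between 35.7% in A952 and 43.1% in A954. This gap of 7.47 percentage points was 2.68 without A954. At 50000 reads per cell the gap was 3.74, between 20.7% in A953 and 24.4% in A954.

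Many cells had reads of several clock genes. Whether the genes were found together more often than their single shares give was not tested. The median number of the 9 genes found in a cell was 5 in NCs and 4 in other cells. All 9 were found in 2.26% of NCs and 2.10% of other cells, and none in 0.968 and 2.90%.

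Across the 5653 cells, *PER1* had a higher correlation with *JUN* and *NR1D1* than with the core activators. All correlations are Spearman's rho on rpm over cells of 1 library, which share depth and background, so they are descriptions only. The rho of *PER1* to *JUN* was 0.26, in NCs 0.23 and in other cells 0.22, and by tag it was 0.23 in A951, 0.33 in A952, 0.23 in A953 and 0.23 in A954. Among the other cells of each tag it was 0.20 in A951, 0.22 in A952, 0.22 in A953 and 0.23 in A954. With total reads and the number of genes detected both held constant, the rho over all cells was 0.21. Among 6978 genes with a read in at least 20% of the cells, *JUN* took place 2 and *NR1D1* place 4 in likeness to *PER1*, and the median gene had a rho of 0.06.

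With the other clock genes, the rho of *PER1* was 0.24 for *NR1D1*, 0.16 for *NR1D2*, 0.16 for *PER2*, 0.15 for *CRY2*, 0.14 for *PER3*, 0.09 for *ARNTL*, 0.04 for *CRY1* and 0.03 for *CLOCK*. The last 2 lay below the median gene. The median of the 8 was 0.14, and 0.08 with total reads and genes detected held constant. In NCs the order was different, with 0.19 for *CRY1*, 0.18 for *NR1D2*, 0.11 for *NR1D1* and -0.06 for *PER3* over 310 cells.

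Over all 36 pairs of clock genes the median rho was 0.10 and the range 0.03 to 0.24, all above 0. However, the median was 0.03 with total reads and genes detected held constant. Each clock gene had a rho of 0.19 to 0.30 with the total reads of the cell. Values of this size in sparse counts were not read as a relation. *NR1D1* and *ARNTL*, a repressor and its target, had a rho of 0.07. *NR1D1* had a rho of 0.23 with *JUN*, while *CRY1* and *CLOCK* had 0.01 each.

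**Figure D4:**
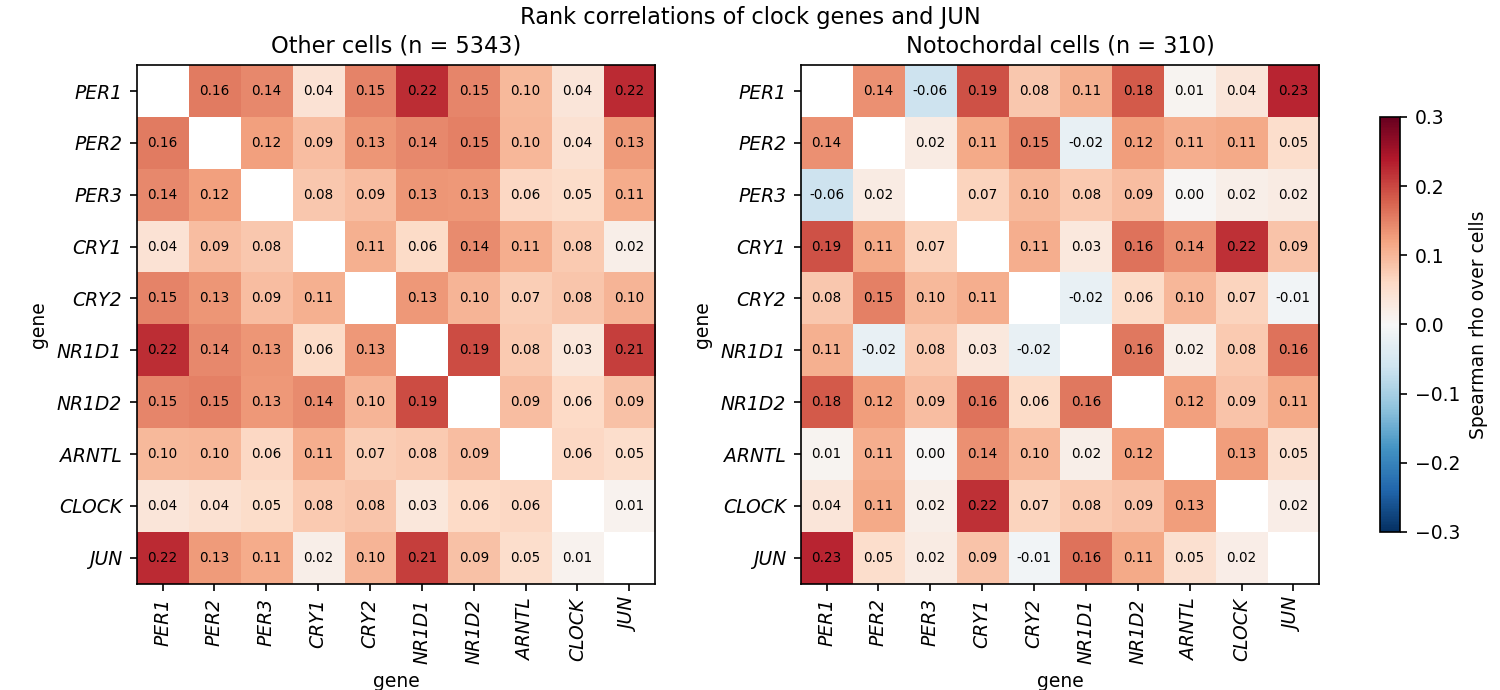
Spearman's rho between each pair of clock genes and *JUN* over 5343 other cells (left) and 310 notochordal cells (right), as colour and number. *PER1* and *NR1D1* have their darkest cells with each other and with *JUN* in other cells, where *CLOCK* is pale. In notochordal cells *CLOCK* has its highest values with *CRY1* (0.22), *ARNTL* (0.13) and *PER2* (0.11).

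The 10 genes most like *PER1* over all cells included 4 of the listed immediate early genes, *JUN*, *FOSB*, *FOS* and *DUSP1*. In order they were *KLF10* (rho 0.27), a zinc finger factor induced by TGF-beta, *JUN* (0.26), *FOSB* (0.24), *NR1D1* (0.24), *GADD45B* (0.24), *DNAJB1* (0.24), a heat shock co-chaperone, *WWP2* (0.22), *FOS* (0.22), *DUSP1* (0.22) and *BHLHE40* (0.22), which encodes the clock repressor DEC1. The lowest were *MTHFD2* (-0.15), *CD55* (-0.15), *LRRFIP1* (-0.15), *MMP3* (-0.15) and *TSC22D1* (-0.13). Within the 310 NCs some of these differed, with 0.16 for *MTHFD2*, 0.13 for *TSC22D1* and 0.04 for *MMP3*, and with 0.04 for *FOS* and -0.05 for *WWP2*, so the order over all cells is not that within NCs. *NR1D1* shared *KLF10*, *JUN* and *DNAJB1* with *PER1* among its 5 most alike genes, and its rho with *KLF10* was 0.27. *NR1D2* was most like *NR1D1*, and its next were *SKIL*, *SERTAD1*, *CSRNP1* and *SQSTM1*. *PER3* was most like *DNAJB1* and *PER1*, and *CRY2* like *TRIB1* and *MIDN*, with *PER1* in its first 5. *PER2* had *SERTAD1*, *SKIL*, *ERF*, *CSRNP1* and *KLF10*. The 5 genes most like *CRY1* (*PDZD8*, *RAB22A*, *PSPC1*, *CCDC186*, *PELI1*), *CLOCK* (*ABCF1*, *TBC1D20*, *UBQLN1*, *UBE2N*, *RALB*) and *ARNTL* (*FOXA3*, *SPSB1*, *MAFF*, *TOB2*, *MYADM*) held no other clock gene.

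*JUN*, an AP-1 transcription factor, was itself higher in NCs, at 3104 rpm against 520 rpm in other cells, with a log2 ratio of 2.58 over all cells, 3.10 in A951 and 2.22 in A952. Cells were therefore also set apart by *JUN* level in 5 quintiles of all kept cells, a division chosen after seeing the data. The lowest quintile ended at 12.5 rpm of *JUN* and the highest began at 530 rpm, and 182 of the 310 NCs were in the highest and 17 in the lowest.

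Among other cells, *PER1* had 33.4, 27.7, 35.8, 54.8 and 187 rpm from the lowest to the highest *JUN* quintile. The highest quintile had 5.59 times the level of the lowest, and the widest step was the last. By tag this fold was 1.99 in A951, 7.82 in A952, 9.27 in A953 and 5.84 in A954. *NR1D1* went from 69.2 to 313 rpm, 4.52-fold, with 3.47-fold in A951, 4.77 in A952, 5.17 in A953 and 5.12 in A954. *CRY2* had a fold of 2.02, from 43.4 to 87.8 rpm, but passed 2-fold only in A952 (3.04) and A954 (2.26), with 1.32 in A951 and 1.71 in A953. *PER2* stood just under the threshold with 49.4 and 98.5 rpm, with folds from 1.48 in A951 to 2.75 in A953, *PER3* had a fold of 1.54 and *NR1D2* 1.48. *ARNTL* had a fold of 1.08 (0.94 to 1.45 by tag), *CRY1* 0.89 (0.59 in A953 to 1.11 in A954) and *CLOCK* 0.83 (0.59 in A952 to 0.92 in A954). Of the 9 clock genes, 3 were at least 2-fold higher in the highest *JUN* quintile and 0 lower, beside 6.14 and 1.32% of the 11067 genes tested. The median depth of other cells was 166408 reads in the lowest quintile and 196759 in the highest, and its part in these folds was not tested.

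**Figure D5:**
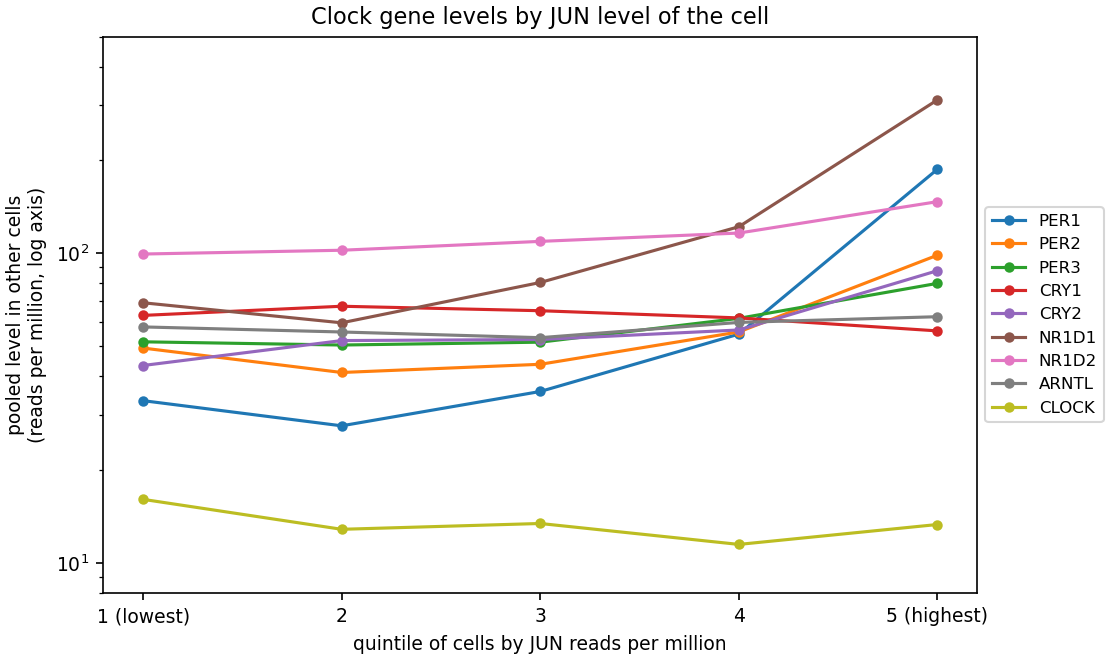
Pooled level of each clock gene in other cells, in reads per 1000000 reads on a log axis, by quintile of *JUN* level. *PER1* and *NR1D1* climb to 187 and 313 rpm in the highest quintile, while *ARNTL*, *CRY1* and *CLOCK* end at 62.4, 56.1 and 13.3 rpm, from 57.8, 63.0 and 16.0 rpm.

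NCs, with 17 cells in the lowest quintile and 182 in the highest, had other folds. *PER1* had 216 rpm in the lowest and 303 rpm in the highest, 1.40-fold, *NR1D1* 369 and 375 rpm, 1.02-fold, and *CRY2* 111 and 95.9 rpm, 0.86-fold. The quintiles between had less, with 96.4, 70.6 and 200 rpm of *PER1* and 269, 198 and 234 rpm of *NR1D1*. The folds of *PER1* and *NR1D1* in NCs thus depend on the 17 cells of the lowest quintile. *PER2* and *NR1D2* had folds of 2.06 and 2.14, *PER3* 1.02, *CRY1* 0.90 and *CLOCK* 0.34. *ARNTL* had 2 reads in the 17 cells of the lowest quintile, too few for a fold, and 81.5 rpm in the highest. The difference from other cells was not tested.

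Within the highest *JUN* quintile, NCs had 303 rpm of *PER1* and other cells 187 rpm, a log2 ratio of 0.70. Averaged over the quintiles, weighted by their numbers of NCs, the log2 ratio of NCs to other cells was 1.15 for *PER1* and 0.73 for *NR1D1*, compared with 1.97 and 1.39 over all cells. From the lowest to the highest quintile the log2 ratio of *PER1* was 2.69, 1.80, 0.98, 1.87 and 0.70, and that of *NR1D1* was 2.42, 2.17, 1.30, 0.94 and 0.26. Both were thus under 2-fold in the highest quintile, which held most NCs. By the weighted mean *PER1* alone of the 9 clock genes passed 2-fold. The quintiles did not make *JUN* equal, since in the highest one NCs had 4926 rpm of *JUN* and other cells 2639 rpm.

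Genes linked to the clock beyond the core were looked at as a list. Of 25 listed genes 19 could be tested, and 10 were at least 2-fold higher in NCs and 0 lower, beside 23.3 and 12.3% of all genes. The median log2 ratio was 1.01, beside 0.27 for all genes. In both tags 7 of the 19 passed 2-fold, beside 15.2% of all genes. *ARNTL2*, a paralogue of *ARNTL*, had a log2 ratio of 3.79 (3.69 in A951, 3.63 in A952), and *NOCT*, the rhythmically expressed gene of nocturnin, 3.48 (3.70 and 3.19). *BHLHE41* and *BHLHE40*, which encode the DEC repressors, had 1.89 and 1.75, and *BHLHE40* passed 2-fold in A952 (1.72) but not in A951 (0.79). *CIART*, a further repressor, had 1.75. *TEF* and *HLF*, the bZIP relatives of *DBP*, had 1.82 and 1.61. *RORA* and *SIRT1* were just past 2-fold at 1.01 and 1.02, and neither passed it in both tags, with 0.94 for *RORA* in A952 and 0.21 for *SIRT1* in A951. *NPAS2*, a paralogue of *CLOCK*, was just short of it at 0.96. Among the lowest were *NFIL3*, a repressor at the sites that *DBP* and *TEF* bind, at -0.89, and *FBXW11* at -0.42.

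Immediate early genes, listed because *PER1* can be induced like them, were a second list. Of 16 tested, 11 were at least 2-fold higher in NCs and 1 lower, beside 23.3 and 12.3% of all genes, with a median log2 ratio of 1.58. In both tags 8 passed 2-fold, beside 15.2% of all genes. The top were *JUN*, *DUSP1* (2.45), which encodes a phosphatase of MAP kinases, and *FOSL2* (2.08). The lower gene was *IER3* at -1.88.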

How the data were processed

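The authors aligned TAS-seq reads to the *Macaca fascicularis* genome and deposited raw read counts, 1 whole number for every gene in every cell, with PCR copies kept and no normalization. Per the submitters' processing notes, HISAT2 2.2.1 and featureCounts 2.0.2 were used. The genome build is not given in the sources used here. Left out were the tag library and another matrix of 1358 cell columns that no sample label names.

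Cells with 1 tag, 200 to 9000 genes and under 5% mitochondrial reads were kept. Doublets and cells without a tag were taken from the name of each cell column. Levels are pooled reads per 1000000 reads of a group (rpm). Genes with a read in at least 5% of all kept cells, both groups together, were tested for size, and a group under 3 reads was set to 3. Likeness was computed for genes with a read in at least 20% of cells. Intervals are 95% exact Poisson and Clopper-Pearson. Every clock gene is named, as are the 10 genes most and 5 least like *PER1*, the 5 most like each other member, and lists of related genes. Alternatives were other limits on cells, thinning to 50000 reads, another rule for notochordal cells, each tag left out, means of rpm per cell, the top 1% of cells left out and no filter on low values. The members and lists were chosen with earlier results of these data known. Python 3.11.15, numpy 2.4.6, scipy 1.17.1, pandas 2.3.3 and matplotlib 3.10.9 were used, and the calculations were tested on simulated data. Reads of close paralogues may be shared. Values of some genes in the list of further clock genes are not reported here.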

Additional observations from a re-analysis of the deposited data

Results flagged for a closer look

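*PER2* and *CRY1* stood out because their log2 ratio of notochordal to other cells had opposite signs in the 2 tags with at least 50 notochordal cells. For *PER2* it was -0.40 in A951 and 0.85 in A952. For *CRY1* it was -0.39 in A951 and 0.0099 in A952, the latter close to 0. The difference between the tags was not tested, since each tag is 1 portion of 1 library.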

How the results depend on the processing

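The log2 ratio of *PER1* lay between 1.88 and 2.18 when 1 tag was left out at a time, the highest without A954. It was 1.72 when *KRT19* and *TBXT* reads were summed to reach 5, and 1.15 as the weighted mean over *JUN* quintiles, which were chosen after seeing the data. The counts of clock genes at least 2-fold higher lay between 2 and 3 when 1 tag was left out, the latter without A951, and those lower stayed at 0. By the mean over *JUN* quintiles, weighted by notochordal cells, the count of higher genes was 1, as *NR1D1* had 0.73, and *CRY1* had 0.025. The highest quintile, with 182 of the 310 notochordal cells, weighs most in it. The gap between the highest and lowest tag in the share of other cells with a *PER1* read, 7.47 percentage points, lay between 2.68 and 7.47 when 1 tag was left out. At 50000 reads per cell it was 3.74, and for shares with at least 5 reads it was 4.91. The rho of *PER1* to *JUN* was 0.33 as Pearson's r on log2 values, 0.33 in A952 alone (0.22 among its other cells) and 0.35 among cells with reads of both genes. The median rho of *PER1* to the clock genes was 0.078 with total reads and genes detected held constant. It was 0.094 in notochordal cells, 0.10 in A951 alone, 0.11 in A953 alone and 0.23 among cells with reads of both genes. Leaving out 1 tag at a time, the log2 ratio lay between -0.38 and 1.02 for *PER2*, -0.057 and 0.64 for *PER3*, and -0.36 and 0.038 for *CRY1*. The lowest values were without A952, which held 236 of the 310 notochordal cells, and the highest without A951. With A951 and A952 only, also chosen after seeing the data, it was 0.0021 for *CRY1*. The cause was not tested. The log2 ratio of *NR1D1* lay between 0.73 and 1.55 over its 13 alternatives, the lowest by the mean over *JUN* quintiles.

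No paired analysis was possible because there was 1 gene expression library. Reads without molecular identifiers are not independent molecules, so the intervals are too narrow, and no value carries an error between animals.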

Other observations

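Genes that respond to cAMP and to glucocorticoids, signals that can reset peripheral clocks, were listed as well. Of 11 cAMP response genes tested, 3 were at least 2-fold higher in notochordal cells and 1 lower, beside 23.3 and 12.3% of all genes, with a median log2 ratio of -0.01 beside 0.27. *AREG*, the growth factor amphiregulin, had a log2 ratio of 7.65 over all cells, with 9.48 in A951 and 5.18 in A952. *PPARGC1A*, a coactivator of mitochondrial genes, had 1.93 and *CREB3L2* 1.16, while the cAMP phosphodiesterase gene *PDE4B* had -1.41. Of 10 glucocorticoid response genes, 4 were higher and 2 lower, beside the same shares of all genes, with a median of 0.30. *DUSP1*, which is also an immediate early gene, had 2.45, *ZBTB16* 1.90, *TSC22D3* 1.39 and *SGK1* 1.25. *ERRFI1*, an inhibitor of EGF receptor signalling, had -3.50, and *HSD11B1*, the enzyme that makes active cortisol from cortisone, had -2.89. *NR3C1*, the glucocorticoid receptor gene, had -0.54.

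Markers of bone cells summed to 11.9 rpm in notochordal cells and 53.2 rpm in other cells. In other cells *IBSP* was the most abundant of them, at 30.0 rpm. Only *RUNX2* of the bone markers was higher in notochordal cells, with 8.13 against 3.38 rpm. Markers of fibroblasts and the annulus summed to 1042 and 3769 rpm, and the erythroid marker measured, *ALAS2*, had 0.015 and 0.045 rpm.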
